A study of Mus musculus with 18 samples.

Results

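The comparison set livers of mice with little KEAP1 against livers of their genetic controls, gene by gene, on 6 single-colour expression arrays of 18 in the series, chosen by their labels alone. The Keap1 KD group (n = 3) was Keap1(Kd/-), with a knockdown allele over a null allele, and the Keap1 control group (n = 3) was Keap1(Kd/+), so that the controls carried the knockdown allele too. Every one of the 18 livers came from a female mouse, and the labelled age was 6 weeks. Strain was labelled Mixed in both Keap1 groups. The Nrf2 KO group, Nrf2(-/-), and its control, Nrf2(+/+), with 3 arrays each and the strain label C57BL/6, were used to ask whether an effect differed between the lines. The Nrf1 CKO group, Nrf1(dN/-)::Alb-Cre, in which the albumin promoter drives Cre, and its control, Nrf1(dN/+), had 3 arrays each and the strain label Mixed. All 18 arrays entered the fit and so the estimate of spread behind each p-value, and the other lines also stand beside the Keap1 arrays in a few levels. Nothing in the labels states that a group's 3 samples were separate animals, so the p-values rest on sample-to-sample spread that could be technical in part. In whole liver, fewer cells of a type and less RNA per cell cannot be told apart.

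KEAP1 is the adaptor that hands the transcription factor NRF2, encoded by Nfe2l2, to a CUL3 ubiquitin ligase, after which the proteasome degrades it. Electrophiles and oxidants modify cysteines of KEAP1 and stop this, and NRF2 then enters the nucleus, pairs with a small MAF protein and binds antioxidant response elements. Its known targets in liver make and recycle glutathione, conjugate and export foreign compounds, reduce quinones and supply NADPH. Levels below are log2 signals relative to the 75th percentile of the array, so a difference of 1 is 2-fold, and levels of different genes cannot be compared, since each probe has its own brightness. A gene was called higher or lower at a limma adjusted p (Benjamini-Hochberg over all genes tested) under 0.05, and a change is KD minus control on this log2 scale. Members of a list counted below as having risen or fallen are those called higher or lower.

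The 6 arrays had 21668 to 28213 of 43379 spots above background, and no spot was saturated. The highest number was that of Keap1 control 3 and the lowest that of Keap1 KD 1. Correlation across genes was 0.973 to 0.982 between control arrays and 0.978 to 0.987 between KD arrays. Control 3 and KD 3 shared a slide, KD 1 and KD 2 shared another, and control 2, control 3 and KD 3 shared a scan date, while control 1 had a slide and date with no other Keap1 array. The 3 arrays per group limit the precision, with a median standard error of 0.24 for a change.

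Of 17721 genes tested, 172 were called higher in Keap1 KD (0.971%) and 819 lower (4.62%). Among the 12874 genes with a symbol, 145 were higher and 97 lower, whereas 722 of the lower and 27 of the higher calls fell on probes that carry only an accession. Changes of at least 2-fold were found for 97 of the higher and 744 of the lower calls. At an unadjusted p under 0.05 there were 970 higher and 2016 lower genes. The median change of all genes was 0.00, and it was 0.31 when arrays were scaled to their median instead. That scaling gave 350 higher and 352 lower calls, with 49.9% of the calls higher in place of 17.4%. Adding slide to the limma model as a block left 11 higher and 46 lower genes, and adding scan date instead left 56 and 202. Without Keap1 control 3 the counts were 94 and 262, and without Keap1 KD 1 they were 160 and 380.

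**Figure D1:**
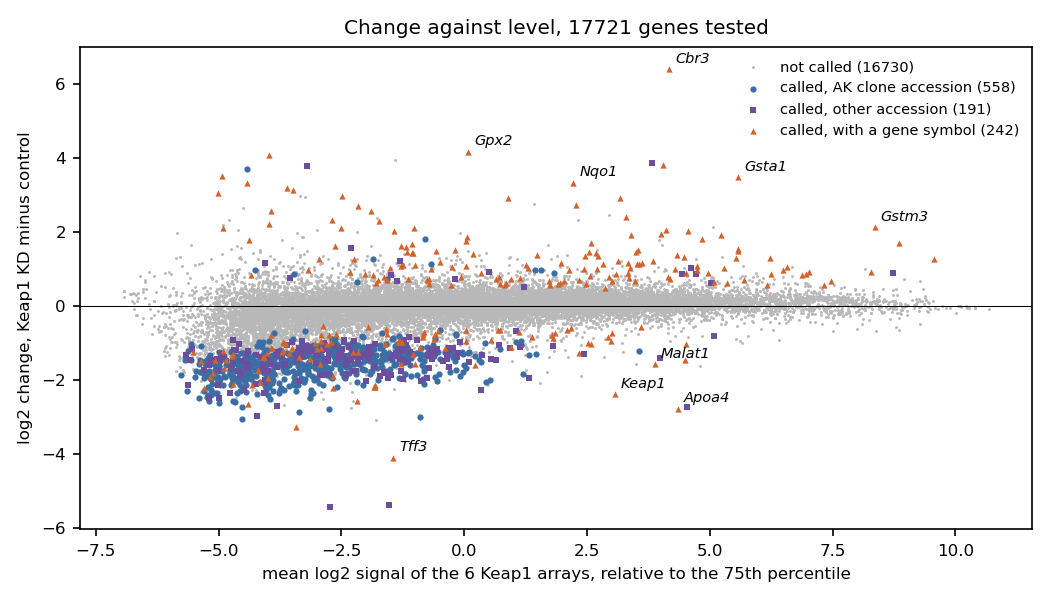
Each point is 1 of 17721 genes; the horizontal axis is the mean log2 signal of the 6 Keap1 arrays relative to the 75th percentile of each array, and the vertical axis is the log2 change, KD minus control. Called genes with a symbol (242) lie on both sides of 0, with Cbr3 at 6.40 and Tff3 at -4.09, while the 558 called AK clone accessions lie mostly below 0 at low signal.

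Keap1 itself was lower in every KD sample. The level was 4.54, 4.88 and 3.33 in the controls and 1.82, 1.85 and 1.93 in the KD samples, and the groups did not overlap. The change was -2.38 with SE 0.31 and a limma adjusted p of 0.00130, so that the KD signal was 0.191 times that of the controls. Control 3 was the lowest control, and the difference between control 3 and KD 3, on 1 slide, was -1.40. Fitted with slide as a block, the change was -2.02 with a limma adjusted p of 0.0780, with scan date as a block it was -2.23 (limma adjusted p = 0.0290), and with the 6 Keap1 arrays alone the limma adjusted p was 0.0576. In the controls and KD samples Nfe2l2 levels overlapped, at 3.43, 3.69 and 3.40 in the controls and 3.04, 3.62 and 3.31 in the KD samples. The change of Nfe2l2 was -0.18 with SE 0.48 and a limma adjusted p of 0.912. That SE pools the spread within all groups of the fit, Nrf2 KO included, where this gene is deleted. It is thus no measure of the Keap1 arrays alone, where the SD was 0.16 in the controls and 0.29 in the KD samples. With the Keap1 arrays alone Nfe2l2 had a limma adjusted p of 0.907. Its relative Nfe2l1, which encodes NRF1, had a change of 0.18 with SE 0.17 and a limma adjusted p of 0.693. Of the 14 tested genes of the KEAP1 and CNC factor system only Keap1 passed the test, and among those not called were Cul3 (0.05), Mafg (0.20), Bach1 (0.21), Sqstm1 (0.25) and Maff (-0.82).

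Among detoxification and antioxidant genes the changes that passed the test were all increases. Across 10 lists of such genes, 186 members were tested, of which 35 were called higher (18.8%, beside 0.971% of all genes) and 0 lower. Counts for single lists below stand beside the same 0.971%. The median change was 0.26 over the 186 members, beside 0.00 over all genes. In 55 members every KD value lay above every control value, beside 5.65% of all genes, and in 2, Txnip and Sult1e1, every KD value lay below (11.4% of all genes). All genes here include probes with only an accession, which hold most of the lower calls. Of genes with a symbol, as all 186 members are, 1.13% were called higher and 0.75% lower. Their shares without overlap were not computed. The change was above 0 in 146 members and below 0 in 40. The lowest changes, neither of which passed the test, were those of Sult1e1, an estrogen sulfotransferase (-2.02, limma adjusted p = 0.254), and Gpx3, the secreted glutathione peroxidase (-1.28, limma adjusted p = 0.207).

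The count of 35 moved with the treatment of slides. It was 6 with slide as a block, 26 with scan date as a block and 10 with the Keap1 arrays alone, while the median change was 0.37, 0.36 and 0.26. Within the slide that held control 3 and KD 3 the median difference of the 186 members was 0.26, and within the scan date of control 2, control 3 and KD 3 it was 0.29. Over 6 fits that each left out 1 Keap1 array, 31 to 38 members were called higher. Of 53 called genes named here, which were set by name, had the largest changes or belonged to the lists, 28 passed the limma test with scan date as a block, 13 with the Keap1 arrays alone and 7 with slide as a block, which were Nqo1, Cbr3, Aox1, Htatip2, Gstm4, Tkt and Nudt11.

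**Figure D2:**
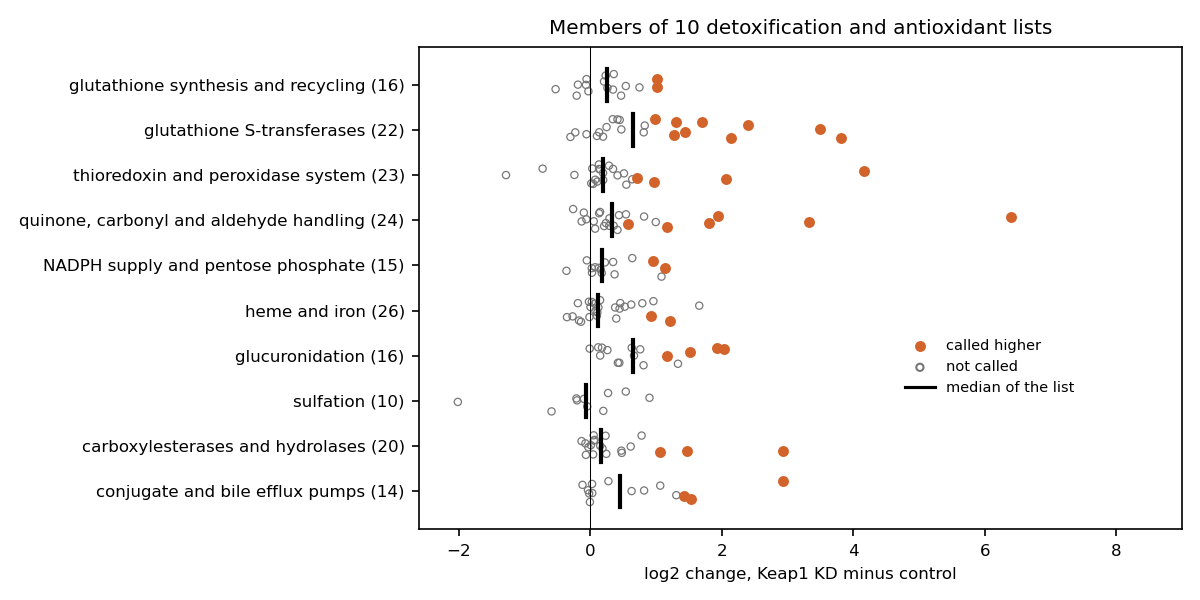
The horizontal axis is the log2 change, KD minus control, and each row is 1 of 10 gene lists with the number of members tested in parentheses; filled points are members called higher, open points are members not called, and the black bar is the median of the list. Of the 10 lists 9 hold members called higher, and sulfation holds none.

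The largest increase of any called gene was in quinone, carbonyl and aldehyde handling, where 6 of 24 tested members rose and 0 fell, with a median change of 0.32. Cbr3 encodes a carbonyl reductase of the short-chain dehydrogenase family. Its level was 0.53, 1.12 and 1.29 in the controls and 6.95, 7.23 and 7.95 in the KD samples. The change was 6.40 with SE 0.46 and a limma adjusted p of 6.74e-06, or 84.3-fold, and the highest control lay far below the lowest KD sample. Nqo1, the quinone reductase most used as a readout of NRF2, had levels of 0.86, 0.13 and 0.69 in the controls and 3.68, 4.05 and 3.94 in the KD samples. The change of Nqo1 was 3.33 with SE 0.25 and a limma adjusted p of 6.74e-06, or 10.1-fold, with no overlap. Aox1, an aldehyde oxidase of the molybdenum cofactor family, was at 2.69, 2.92 and 3.50 in the controls and 4.96, 4.85 and 5.12 in the KD samples. Its change was 1.94 with SE 0.22 and a limma adjusted p of 0.000573. Htatip2, an oxidoreductase of the short-chain family, was at 3.85, 3.78 and 4.17 in the controls and 5.80, 5.74 and 5.70 in the KD samples, with the 3 KD samples close together. Its change was 1.81 with SE 0.14 and a limma adjusted p of 1.22e-05. The changes of Akr1b8 and Akr1a1, aldo-keto reductases, were 1.16 and 0.58. Cbr3, Nqo1, Aox1 and Htatip2 were the only genes with a symbol that passed the test under all 21 settings tried, with slide as a block among them. Akr1b8 had a limma adjusted p of 0.0527 or 0.0571 without control 1 or KD 3, in that order.

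Glutathione S-transferases join glutathione to electrophiles, and 9 of 22 tested members rose, with a median change of 0.64. In the alpha class, Gsta1 was at 4.27, 3.03 and 4.18 in the controls and 7.26, 7.75 and 6.93 in the KD samples, a change of 3.49 (SE 0.51, limma adjusted p = 0.00238). Gsta2 was at 2.51, 1.17 and 2.72 in the controls and 5.89, 6.36 and 5.59 in the KD samples, a change of 3.81 (SE 0.56, limma adjusted p = 0.00238). Control 2 was the lowest sample for both, and KD and control values did not overlap. These 2 genes are near-identical copies, and how far each probe reads the other was not tested. In the mu class, Gstm3 was at 8.10, 7.29 and 6.48 in the controls and 9.76, 9.25 and 9.26 in the KD samples, a change of 2.13, and Gstm4 at 2.31, 1.47 and 2.49 in the controls and 3.93, 4.98 and 4.56 in the KD samples, a change of 2.40. Gstm1 was at 9.66, 9.03 and 8.09 in the controls and 10.55, 10.17 and 9.88 in the KD samples, a change of 1.27 (SE 0.33, limma adjusted p = 0.0332), and a second probe of Gstm1 gave 3.05. The mu-class genes also resemble each other closely, so the values of single members are uncertain. Gstp1, of the pi class, was at 8.37, 8.03 and 7.59 in the controls and 9.96, 9.56 and 9.57 in the KD samples, a change of 1.70 (limma adjusted p = 0.00217), and its second probe gave 2.56. Gsta4, Gstm2 and the microsomal Mgst3 rose by 1.44, 1.30 and 0.99. The alpha-class Gsta3 did not pass the test, with a change of 0.41. Gstm1 had a limma adjusted p of 0.0625, 0.140, 0.122 or 0.0644 without control 2, control 3, KD 1 or KD 2, in that order. Gstm2 had a limma adjusted p of 0.0885, 0.126, 0.0689 or 0.0760 without control 2, control 3, KD 2 or KD 3, in that order. When slide was a block 1 of the 22 members was called higher, Gstm4, and when scan date was a block 8.

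Glutathione itself is made by glutamate-cysteine ligase, whose catalytic and modifier subunits are encoded by Gclc and Gclm. Gclc was at 4.30, 4.96 and 5.06 in the controls and 5.86, 5.47 and 6.05 in the KD samples, and the groups did not overlap. The change was 1.02 with SE 0.21 and a limma adjusted p of 0.0115. With quantile normalization the limma adjusted p of Gclc was 0.0761. It was 0.0830 with scan date as a block, 0.149 with slide as a block and 0.147 with the Keap1 arrays alone. Gclm was at 1.29, 1.50 and 1.31 in the controls and 1.78, 1.33 and 1.76 in the KD samples, with KD 2 inside the control range. Its change was 0.26 with SE 0.21 and a limma adjusted p of 0.619. Gsr, the reductase that recycles glutathione with NADPH, was at 2.08, 2.48 and 2.06 in the controls and 3.25, 3.13 and 3.27 in the KD samples. Its change was 1.01 with SE 0.15 and a limma adjusted p of 0.00277. Gclc and Gsr were the only 2 of 16 tested members of glutathione synthesis and recycling called higher, and 0 were called lower. The change was above 0 in 10 of the 16 and below 0 in 6. The median change was 0.25. Slc7a11 and Ggt1 were not above background on all arrays of any group and were not tested.

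The thioredoxin and peroxidase system reduces protein disulfides and peroxides, and 4 of 23 tested members rose. Gpx2, a glutathione peroxidase known mainly from the gut epithelium, was at -3.25, -1.35 and -1.44 in the controls and 2.47, 2.06 and 1.93 in the KD samples. The change was 4.16 with SE 0.56 and a limma adjusted p of 0.00156, or 17.9-fold, with control 1 the lowest sample. Srxn1, sulfiredoxin, which repairs overoxidized peroxiredoxins, was at 3.02, 2.92 and 3.29 in the controls and 4.68, 5.34 and 5.39 in the KD samples. Its change was 2.06 with SE 0.25 and a limma adjusted p of 0.00105. Txnrd1, the cytosolic thioredoxin reductase, was at 4.36, 4.20 and 4.22 in the controls and 5.23, 4.95 and 5.51 in the KD samples. Its change was 0.97 with SE 0.16 and a limma adjusted p of 0.00367. Txn1, its substrate thioredoxin, rose by 0.71 (limma adjusted p = 0.0145). Txn1 had a limma adjusted p of 0.0528, 0.0571 or 0.0604 without control 2, control 3 or KD 1, in that order. For these 4 genes no KD value overlapped a control value. Prdx1 (0.51, limma adjusted p = 0.0793) and Cat (0.41) did not pass the test although their groups did not overlap either.

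NADPH, which the reductases above consume, is supplied by the pentose phosphate pathway and malic enzyme, and 2 of 15 tested members of that list rose. Pgd, 6-phosphogluconate dehydrogenase, was at 2.41, 2.16 and 2.21 in the controls and 3.53, 3.22 and 3.44 in the KD samples. Its change was 1.14 with SE 0.18 and a limma adjusted p of 0.00367. Tkt, transketolase, was at 6.65, 5.56 and 5.82 in the controls and 7.03, 6.98 and 6.90 in the KD samples, a change of 0.96 (limma adjusted p = 0.0156), with control 1 the highest control. Tkt had a limma adjusted p of 0.0546, 0.0744 or 0.0525 without control 2, control 3 or KD 1, in that order. G6pdx, which catalyses the first step of the pathway, was at 0.97, 0.46 and 0.99 in the controls and 1.98, 1.15 and 1.20 in the KD samples. The groups did not overlap, and the change was 0.64 with SE 0.24 and a limma adjusted p of 0.162, which did not pass. The values for Me1 were 1.08 and a limma adjusted p of 0.255, and those for Taldo1 were 0.03 and 0.971.

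Among 26 tested genes of heme and iron handling 2 rose. Ftl1, the ferritin light chain that stores iron, was at 8.14, 7.62 and 7.73 in the controls and 8.86, 8.54 and 8.84 in the KD samples. Its change was 0.92 with SE 0.16 and a limma adjusted p of 0.00559. Slc48a1, a transporter that brings heme into the cytosol, was at 2.55, 2.45 and 2.61 in the controls and 3.69, 3.47 and 4.09 in the KD samples. Its change was 1.21 with SE 0.19 and a limma adjusted p of 0.00291. Hmox1, the inducible heme oxygenase, overlapped between the groups, at 2.99, 2.88 and 2.81 in the controls and 3.08, 2.81 and 3.08 in the KD samples. Its change was 0.10 with SE 0.27 and a limma adjusted p of 0.917. Blvrb, a biliverdin reductase, was at 3.52, 2.63 and 3.42 in the controls and 4.89, 4.84 and 4.81 in the KD samples. Its groups did not overlap and its change was 1.66, with a limma adjusted p of 0.0649.

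**Figure D3:**
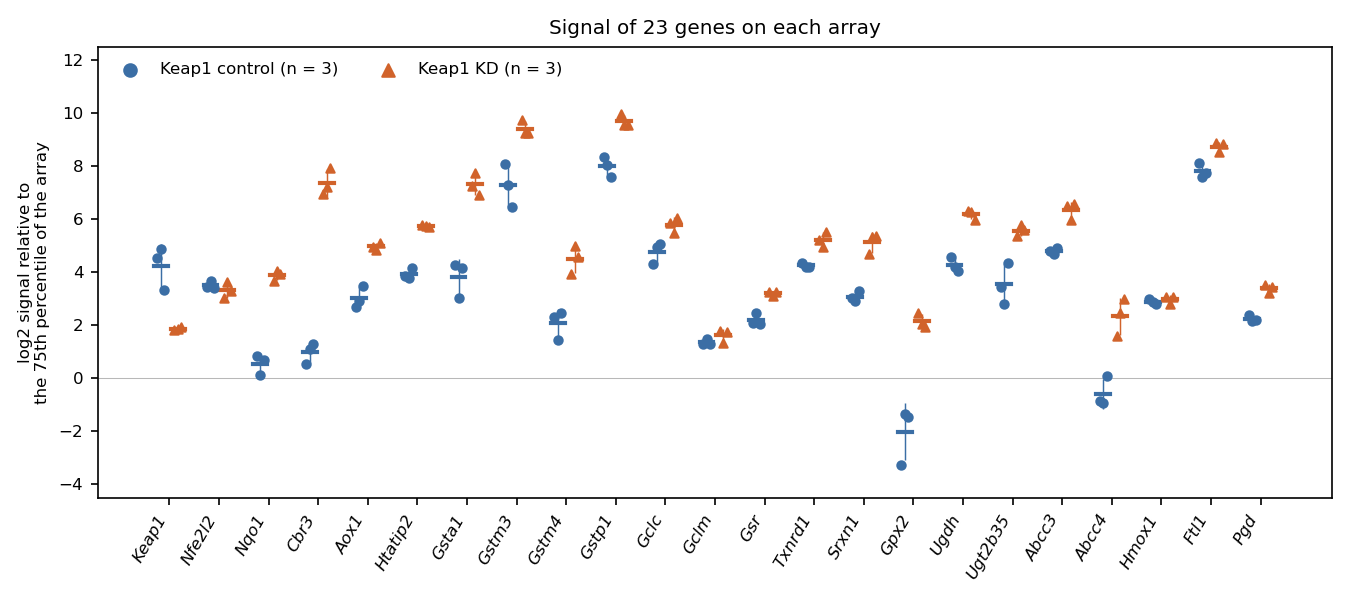
Log2 signal relative to the 75th percentile of the array (vertical axis) for 23 genes (horizontal axis), with circles for the 3 Keap1 control arrays and triangles for the 3 Keap1 KD arrays; horizontal bars are means and vertical lines are 1 SD on each side. Keap1 is lower in KD, Nfe2l2, Gclm and Hmox1 overlap between the groups, and Cbr3, at 0.53 to 1.29 in controls and 6.95 to 7.95 in KD, is farthest apart.

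Conjugation with glucuronic acid needs the sugar donor as well as the transferases, and both kinds of gene were among the 4 of 16 tested members that rose, with a median change of 0.65. Ugdh, the dehydrogenase that makes UDP-glucuronic acid, was at 4.58, 4.19 and 4.05 in the controls and 6.32, 6.28 and 5.99 in the KD samples. Its change was 1.92 with SE 0.25 and a limma adjusted p of 0.00128. Slc35d1, which carries UDP-glucuronic acid into the endoplasmic reticulum, was at 1.42, 1.68 and 1.05 in the controls and 2.20, 2.49 and 2.95 in the KD samples, a change of 1.16 (limma adjusted p = 0.00945). The transferases Ugt2b35 and Ugt2b1 were at 3.46, 2.81 and 4.36 in the controls and 5.36, 5.79 and 5.58 in the KD samples and at 3.02, 2.08 and 3.21 in the controls and 4.61, 4.25 and 4.01 in the KD samples, with changes of 2.03 and 1.52. None of these 4 genes had overlapping groups. Slc35d1 had a limma adjusted p of 0.0529 without control 3. Ugt1a1, the bilirubin transferase, had a change of 0.15. Of the sulfation genes, the other main conjugation route, 0 of 10 tested passed the test, and the median change was -0.07. Within the slide of control 3 and KD 3 the median of the glucuronidation list was 0.05, and within the scan date 0.58.

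Among carboxylesterases and other hydrolases 3 of 20 tested members rose. Ephx1, the microsomal epoxide hydrolase, was at 4.38, 4.98 and 5.16 in the controls and 6.32, 6.00 and 6.60 in the KD samples. Its change was 1.47 with SE 0.31 and a limma adjusted p of 0.0137. Ephx1 had a limma adjusted p of 0.0557 without KD 3. The carboxylesterase Ces2b was at 2.97, 0.09 and 2.05 in the controls and 4.87, 4.69 and 4.32 in the KD samples, a change of 2.93 (limma adjusted p = 0.00760), and control 2 lay far below the other controls. Ces1g was at 6.20, 5.81 and 6.12 in the controls and 7.19, 7.26 and 6.87 in the KD samples, a change of 1.07. Among 14 tested conjugate and bile efflux pumps 3 rose, all of the ABCC family that exports conjugates. Abcc4, a pump of the sinusoidal membrane, was at -0.87, -0.94 and 0.07 in the controls and 1.59, 2.46 and 2.98 in the KD samples. Its change was 2.92 with SE 0.44 and a limma adjusted p of 0.00251, or 7.59-fold. Abcc3, also sinusoidal, was at 4.79, 4.71 and 4.92 in the controls and 6.48, 5.96 and 6.58 in the KD samples. Its change was 1.53 with SE 0.25 and a limma adjusted p of 0.00367. Abcc5 was at -1.95, -1.83 and -1.57 in the controls and -1.21, -0.29 and 0.42 in the KD samples, a change of 1.42 (limma adjusted p = 0.0177), with KD 1 the lowest KD sample. Abcc5 had a limma adjusted p of 0.0520 or 0.0671 without control 1 or KD 3, in that order. Abcc2, the canalicular pump for conjugates, had a change of 0.28 (limma adjusted p = 0.488) with overlapping groups.

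The antioxidant response element to which NRF2 and small MAF proteins bind has the core TGACNNNGC, and promoter windows from RefSeq (build GRCm38.p6, 250 bases before to 50 after each start) were searched for it on both strands. A sequence was found for 29 of the 35 called members, and 7 of these (24.1%) held the core in any of their windows. Of 126 of the 151 members not called with a window, 19 held it (15.1%). The share was 28.8% of 118 genes called higher, 10.5% of 76 called lower and 16.7% of 10299 tested genes with a window. Of all 32851 windows counted singly, 12.4% held the core. A match is a run of letters and not a bound site. No binding was measured on these samples, and a gene without a match in this window may have one elsewhere. The 5 upstream stretches below belong to called members and show the core in capitals, 5' to 3' in the direction of the gene, where it may stand on either strand. Both GCGTGGTCA and TGACTTAGC stand in the Ugdh stretch.
Abcc4 (chr14:118706220-118706319, minus strand): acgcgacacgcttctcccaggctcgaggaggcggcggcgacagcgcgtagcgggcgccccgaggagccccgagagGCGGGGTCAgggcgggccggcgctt
Ugdh (chr5:65435883-65435982, minus strand): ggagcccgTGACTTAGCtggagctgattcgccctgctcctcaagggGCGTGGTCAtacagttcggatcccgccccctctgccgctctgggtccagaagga
Htatip2 (chr7:49759412-49759511, plus strand): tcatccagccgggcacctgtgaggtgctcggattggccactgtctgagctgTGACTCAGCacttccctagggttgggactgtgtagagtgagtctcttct
Slc35d1 (chr4:103215224-103215323, minus strand): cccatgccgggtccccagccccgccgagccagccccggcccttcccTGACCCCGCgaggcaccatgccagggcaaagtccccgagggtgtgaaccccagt
Txnrd1 (chr10:82859068-82859167, plus strand): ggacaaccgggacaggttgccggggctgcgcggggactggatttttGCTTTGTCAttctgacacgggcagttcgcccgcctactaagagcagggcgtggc

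The 5 genes differed in the size of their change, from 0.97 for Txnrd1 to 2.92 for Abcc4, and each stretch ends within its gene's 250 bases upstream. The matches in Srxn1 and Pgd lay elsewhere in their windows. The windows of Nqo1, Cbr3, Gsta1 and Gstm3 held no match to these letters.

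Nrf2 KO livers allow a test of whether the members moved differently when NRF2 was absent. The Nrf2 KO and its control share no sample with the Keap1 groups, but they share slides. All Nrf2 controls lay on 1 slide with Keap1 control 1, and no Nrf2 KO array had that slide or its scan date. Within the Nrf2 line, genotype can thus not be told apart from slide or scan date. Nrf2 KO 3 shared a slide with Keap1 KD 1 and KD 2, and Nrf2 KO 2 shared one with Keap1 control 2. In that line the signal of Nfe2l2 was 8.20 lower on the log2 scale in KO than in control (limma adjusted p = 4.89e-07), which checks those labels. The Keap1 effect lay above the Nrf2 effect for 178 of 17721 genes (1.0%) and below it for 373 (2.1%), by the limma test of the difference. Among the 186 detoxification members it lay above for 41 and below for 1, Sult1c2. Of the 35 members higher in Keap1 KD, 31 were among the 41, and the other 4 were Gsta4, Mgst3, Tkt and Abcc5. The 35 were called on the Keap1 effect, which is part of the difference, so the count of 31 is no separate evidence. In the Nrf2 line the median change of the 35 was -0.67 and that of all 186 was -0.14, beside 0.01 over all genes. The change was below 0 in 32 of the 35, but only Nqo1, Aox1 and Ces1g passed the limma test as lower in Nrf2 KO.

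Aox1 had the most negative Nrf2 effect of the 35, at -2.73 (limma adjusted p = 1.17e-05) beside its Keap1 effect of 1.94. Nqo1 was at -1.47 beside 3.33, and Ces1g at -1.80 beside 1.07. Cbr3, with the largest Keap1 effect, had an Nrf2 effect of -0.33 (limma adjusted p = 0.889), and Abcc4 had -0.09. The carboxylesterases Ces1b and Ces1f, picked after their values were seen, showed the reverse order, with Nrf2 effects of -1.99 and -1.97 and Keap1 effects of 0.47 and 0.48 that did not pass the test. With slide as a block 27 of 17721 genes differed between the lines, with scan date as a block 78, and without Keap1 control 3 it was 264, in place of 551.

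**Figure D4:**
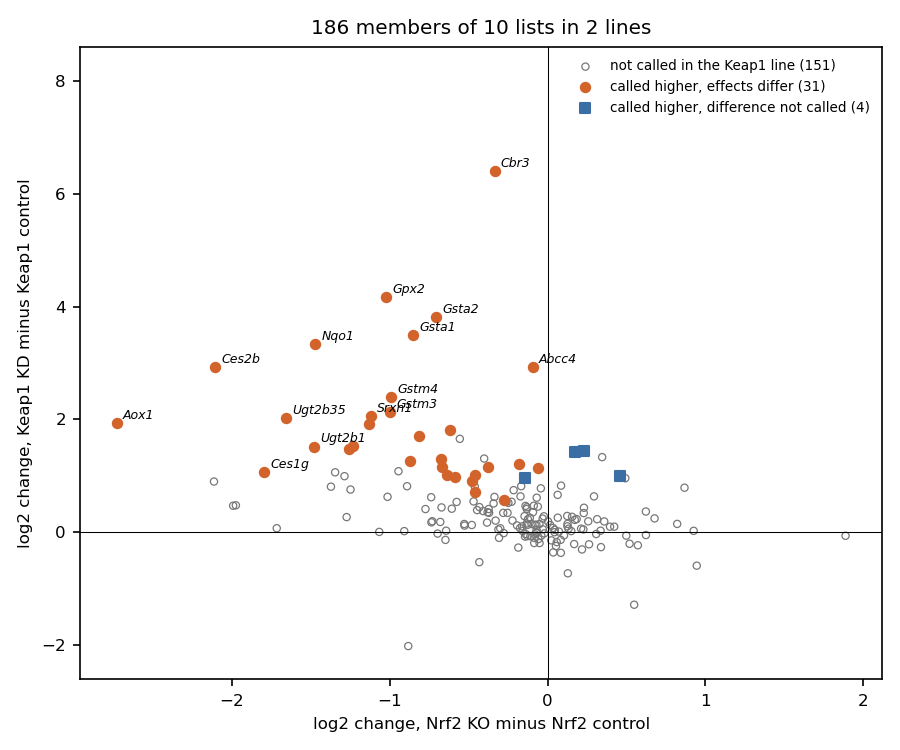
Each point is 1 of 186 members; the horizontal axis is the log2 change in Nrf2 KO against its control and the vertical axis that in Keap1 KD against its control. Of the 35 called higher in Keap1 KD, 31 (filled circles) differ from the Nrf2 effect and 4 (squares) do not pass that test, and 32 lie left of 0. The difference contains the Keap1 effect by which the 35 were called.

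Outside these lists, several of the largest increases were in genes barely detected in the controls. Tinag, a basement membrane protein of the kidney tubule, was not above background in any control and was at least 7.94-fold higher in KD (limma adjusted p = 0.0105). Its measured levels were -7.26, -5.43 and -5.36 in the controls and -2.42, -1.58 and -1.82 in the KD samples. Nudt11, a hydrolase of diphosphoinositol phosphates, was at least 7.16-fold higher (limma adjusted p = 0.000573), with all 3 KD samples between -2.19 and -1.81. D630045J12Rik was at least 4.48-fold higher and Dnase1, a secreted endonuclease, at least 3.37-fold, again with no control above background. Such bounds set the KD mean against the higher of the lowest signal well above background and the gene's own control signal on each array. Ptgfr, the receptor of prostaglandin F2 alpha, was at -4.02, -7.06 and -4.09 in the controls and -3.46, -1.07 and -1.23 in the KD samples. Its change was 3.14 with SE 0.78 and a limma adjusted p of 0.0284, with control 2 far below the other controls and 2 controls above background. Ptgfr had a limma adjusted p of 0.0936, 0.0934 or 0.101 without control 2, KD 2 or KD 3, in that order. Among genes picked after their values were seen, Serpinb1a, an inhibitor of neutrophil elastase, was at 0.96, 0.40 and 1.34 in the controls and 3.14, 4.45 and 3.31 in the KD samples, a change of 2.74. Pir and Entpd5 had changes of 1.45 and 1.38 (limma adjusted p = 0.00486 and 0.00238), and Gucy2c and Wnt9b of 2.01 and 1.62.

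Bile acid synthesis held 3 called members of 18, all higher, beside 0.971% of all genes and 1.13% of those with a symbol. With quantile normalization or without control 3, 1 was called higher. Cyp7b1, the oxysterol 7-alpha-hydroxylase, was at 3.21, 1.51 and 2.59 in the controls and 4.43, 4.53 and 4.14 in the KD samples. Its change was 1.93 with SE 0.36 and a limma adjusted p of 0.00680, and control 2 was the lowest sample. Hsd3b7, the next enzyme on the route, was at 5.35, 6.19 and 5.90 in the controls and 6.60, 6.65 and 6.77 in the KD samples, a change of 0.86 (limma adjusted p = 0.0191). Acox2, the peroxisomal oxidase that shortens the side chain, was at 3.75, 5.09 and 3.77 in the controls and 5.50, 5.16 and 5.20 in the KD samples, a change of 1.08 (limma adjusted p = 0.0379). Control 2 of Acox2 lay only just below the lowest KD sample. Acox2 had a limma adjusted p of 0.124, 0.164, 0.122, 0.0571 or 0.0771 without control 1, control 3, KD 1, KD 2 or KD 3, in that order. Hsd3b7 had a limma adjusted p of 0.0592, 0.0546 or 0.0653 without control 1, control 3 or KD 3, in that order. None of the 3 passed the limma test with slide as a block (0 of 3), and 1 did with scan date as a block.

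Other gene groups of the liver were called higher at a share near that of all genes. Over 26 further lists, 9 of 634 entries tested were higher (1.42%, beside 0.971% of all genes and 1.13% of those with a symbol) and 1 was lower (0.158%, beside 4.62% and 0.75%). Of the 26 lists 19 held no called gene. The called genes included, beside the 3 bile acid genes, the mevalonate kinase Mvk (0.78), the proteasome subunit Psmb5 (0.63), the matricellular protein Ccn1 (0.99) and H2-Q1, an MHC class I gene, at -1.58. Mvk had a limma adjusted p of 0.0926, 0.139, 0.0634, 0.0794 or 0.125 without control 2, control 3, KD 1, KD 2 or KD 3, in that order. Psmb5 had a limma adjusted p of 0.113, 0.177, 0.148 or 0.100 without control 2, control 3, KD 1 or KD 2, in that order. Ccn1 had a limma adjusted p of 0.0513, 0.0563, 0.0862, 0.0639 or 0.0761 without control 1, control 2, control 3, KD 2 or KD 3, in that order. Cyp7b1 and Gstp1 were each counted again among male-biased liver genes. For 43 tested drug-metabolising P450 genes and receptors 0 were called, and the median change was 0.14. Cyp2a5 was at 9.54, 7.47 and 8.78 in the controls and 9.44, 9.34 and 9.19 in the KD samples, a change of 0.72 with SE 0.34 and a limma adjusted p of 0.305, with control 2 lowest. Cyp2a5 was called without control 1 (1.20, limma adjusted p = 0.0278). Cyp1a2 had groups that did not overlap (1.32, limma adjusted p = 0.152), and in control 2 it was at 3.08 beside 5.05 and 5.62 in the other controls. Fatty acid and triglyceride synthesis (31 tested, median 0.01), fatty acid oxidation and ketogenesis (47, median -0.03) and glucose metabolism (27, median -0.04) held 0 called genes each. The same held for acute phase and inflammation (28, median -0.34), the interferon response (26, median 0.00) and complement and coagulation (36, median -0.14). Of 37 tested 26S proteasome genes 35 had a change above 0, with a median of 0.22, but only Psmb5 was called. That median was 0.10 with quantile normalization, 0.09 within the slide of control 3 and KD 3, and 0.07 within the scan date. Of 32 tested respiratory chain genes 26 had a change above 0, with a median of 0.09 and 0 called. Their median was -0.02 with quantile normalization, 0.07 within that slide and -0.0004 within the scan date.

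In several of the genes with a symbol that fell most, control 2 was the high sample. Tff3, a secreted trefoil peptide, was at -0.42, 2.98 and -0.79 in the controls and -3.53, -3.40 and -3.56 in the KD samples. Its change was -4.09 with SE 0.92 and a limma adjusted p of 0.0177, and all KD samples lay below all controls, but control 2 exceeded the other controls by far. Tff3 had a limma adjusted p of 0.0554, 0.0548 or 0.0541 without control 2, KD 1 or KD 3, in that order. Apoa4, an apolipoprotein of chylomicrons and of the fasted or fat-loaded liver, was at 5.35, 7.48 and 4.35 in the controls and 3.73, 2.69 and 2.46 in the KD samples. Its change was -2.76 with SE 0.62 and a limma adjusted p of 0.0172. Apoa4 had a limma adjusted p of 0.0653 without KD 3. Control 2 was also the highest control of Ffar4, at -3.00, 1.56 and -3.91 in the controls and -5.01, -5.54 and -4.60 in the KD samples, of Slc17a8 (-2.18), of Col5a3 (-2.17) and of Cfap69 (-2.21). Of the KD samples 1 was above background for Ffar4 and 2 for Cfap69, so these changes rest in part on values below it. Ffar4 had a limma adjusted p of 0.107, 0.126 or 0.0829 without KD 1, KD 2 or KD 3, in that order. Slc17a8 had a limma adjusted p of 0.117, 0.0522, 0.136 or 0.0711 without control 2, KD 1, KD 2 or KD 3, in that order. Col5a3 had a limma adjusted p of 0.0517 or 0.0615 without KD 2 or KD 3, in that order. Akr1c18, a hydroxysteroid dehydrogenase that inactivates progesterone, was at -1.23, -1.39 and -0.10 in the controls and -2.94, -3.59 and -3.87 in the KD samples, a change of -2.56 with SE 0.55 and a limma adjusted p of 0.0145. Akr1c18 had a limma adjusted p of 0.0782 or 0.0567 without control 3 or KD 3, in that order. Mpp4 was above background in 3 controls and 0 KD samples, and its KD signal was lower by a factor of at least 2.68 (limma adjusted p = 0.00923). Mpp4 had a limma adjusted p of 0.0545 without control 3. Kcnj9, above background in 2 controls and 0 KD samples, was at least 1.23-fold lower. Kcnj9 had a limma adjusted p of 0.0654, 0.145, 0.0733, 0.0862 or 0.0640 without control 1, control 3, KD 1, KD 2 or KD 3, in that order. Cox7a1, picked after its values were seen, had a change of -1.03.

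Most of the lower calls were probes named only by AK clone accessions, most of which stand for mouse cDNA clones. Of 2268 such probes tested 547 were lower (24.1%) and 11 higher, with a median change of -0.73. Of 2579 probes with other accessions 175 were lower (6.79%), and of the 12874 with a symbol 97 (0.75%). The median level of the clone probes was -2.72, -2.71 and -2.31 in the controls and -3.54, -3.11 and -3.46 in the KD samples. Control 3 was highest, the array with the most spots above background, and the groups did not overlap. In the Nrf2 line, KO and control together, the medians ran from -3.69 to -3.20, overlapping the range of the Keap1 KD samples. The number of lower clone probes was 165 without control 3 and 40 with slide as a block, with a median change of -0.57 and -0.81. Without KD 1 it was 236 and without KD 3 it was 305. With normexp background correction and quantile normalization the number was 241, with a median of -0.13. Among the KD samples KD 1 had the fewest spots above background and the lowest median. The part of these differences between arrays in the lower calls was not tested.

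Single noncoding RNAs, picked after their values were seen, differed in whether they passed the test. Malat1, a nuclear RNA, was at 4.71, 4.91 and 4.36 in the controls and 2.97, 3.47 and 2.87 in the KD samples. Its change was -1.56 with SE 0.24 and a limma adjusted p of 0.00295. Kcnq1ot1, the antisense RNA of an imprinted domain, had a change of -1.57 (limma adjusted p = 0.00386). Both kept the call in each fit that left out 1 Keap1 array. Xist, the RNA that coats the inactive X chromosome, was at 5.11, 4.90 and 5.11 in the controls and 3.51, 4.66 and 3.87 in the KD samples, a change of -1.03 (limma adjusted p = 0.0361). Tsix, its antisense partner, had a change of -1.38 (limma adjusted p = 0.0172), and Snhg8, a host of small nucleolar RNAs, one of -1.04 (limma adjusted p = 0.0244). Xist had a limma adjusted p of 0.0807, 0.0582, 0.115, 0.145 or 0.109 without control 1, control 2, control 3, KD 1 or KD 3, in that order. Tsix had a limma adjusted p of 0.0512, 0.0597, 0.0751 or 0.0519 without control 2, control 3, KD 1 or KD 3, in that order. Snhg8 had a limma adjusted p of 0.0919, 0.0832, 0.0638 or 0.0772 without control 2, control 3, KD 1 or KD 2, in that order. With arrays scaled to their median, the limma adjusted p was 0.145 for Xist, 0.0729 for Tsix and 0.130 for Snhg8. Neat1, also nuclear, was at 1.90, 2.25 and 1.93 in the controls and 1.83, 2.72 and 2.01 in the KD samples, with overlapping groups and a change of 0.16. Meg3 had a change of -1.08 with overlapping groups and did not pass (limma adjusted p = 0.401). In the Nrf2 line, KO and control together, Malat1 ran from 3.28 to 4.10. AK033629 and AK153996, at -1.97 and -1.94, were the only lower calls that passed under all 21 settings.

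**Figure D5:**
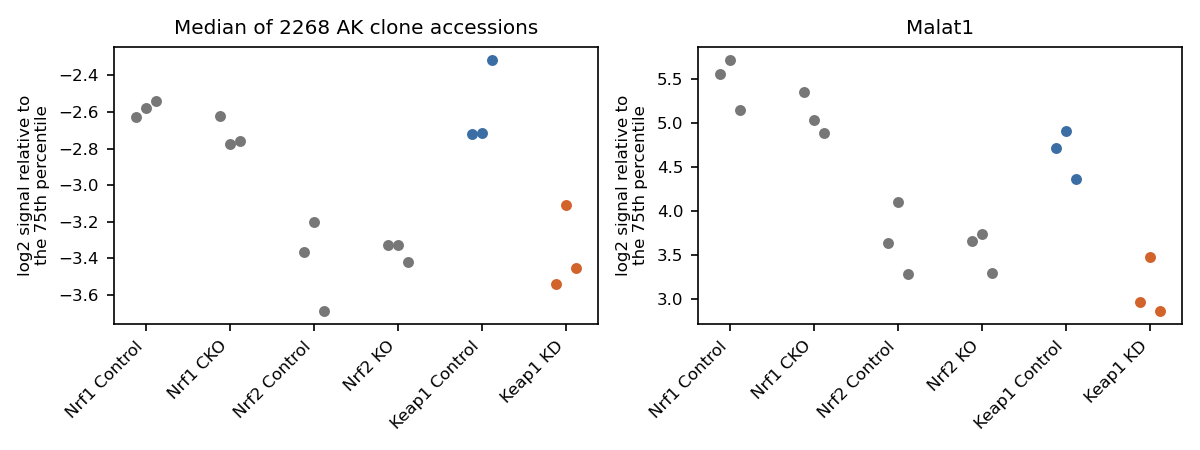
Each point is 1 of 18 arrays in 6 groups; the vertical axes are log2 signals relative to the 75th percentile of the array, on the left the median of 2268 probes named by AK clone accessions and on the right Malat1. On the left the Keap1 controls (-2.72 to -2.31) lie near the Nrf1 groups and the Keap1 KD samples (-3.54 to -3.11) near the Nrf2 groups. On the right the Keap1 controls (4.36 to 4.91) lie mostly below the Nrf1 groups (4.89 to 5.72). The Keap1 KD samples (2.87 to 3.47) lie mostly below the Nrf2 groups (3.28 to 4.10) there.

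The markers of the liver's cell types were called at shares near those of genes with a symbol. Over 10 marker lists, 2 of 125 entries tested were higher (1.6%, beside 1.13%) and 2 lower (1.6%, beside 0.75%). The hepatocyte markers had 0 called of 17 tested and a median change of 0.01, with Alb at -0.05, Ttr at -0.10 and Hnf4a at 0.01. Trem2, a receptor of lipid-associated macrophages, was at -1.48, -0.81 and -0.55 in the controls and 0.26, 0.68 and 0.75 in the KD samples, a change of 1.51 with SE 0.34 and a limma adjusted p of 0.0165. The summed linear level of the 19 Kupffer cell and macrophage markers ran from 133.0 to 288 in controls and from 256 to 297 in KD samples, with overlap, and their median change was -0.16. Within the list Marco was at 3.70, 3.61 and 4.66 in the controls and 6.23, 5.92 and 6.26 in the KD samples, without overlap but with a limma adjusted p of 0.0801, whereas Clec4f (0.19), Vsig4 (-0.13) and Timd4 (-0.13) had overlapping groups. Lyve1, of sinusoidal endothelium, was at 0.35, 0.99 and 0.76 in the controls and 1.97, 1.85 and 1.58 in the KD samples, a change of 1.10 with SE 0.26 and a limma adjusted p of 0.0228, while Stab2 and Pecam1 had changes of -0.36 and -0.22. Lum, of stellate cells and fibroblasts, had a change of -0.86 (limma adjusted p = 0.0459). Cela1, a pancreatic elastase, was above background in 1 KD sample and had a change of -1.27. Cholangiocyte, lymphocyte, neutrophil, erythroid and adipocyte markers held 0 called genes of 14, 17, 7, 6 and 4 tested. Trem2 had a limma adjusted p of 0.0586 or 0.0604 without control 1 or KD 3, in that order. Lyve1 had a limma adjusted p of 0.0761, 0.0695, 0.0822 or 0.0517 without control 1, control 3, KD 1 or KD 2, in that order. Lum had a limma adjusted p of 0.0842, 0.177, 0.140 or 0.121 without control 1, control 3, KD 1 or KD 3, in that order. Cela1 had a limma adjusted p of 0.112, 0.0701, 0.141, 0.101, 0.138 or 0.0855 without control 1, control 2, control 3, KD 1, KD 2 or KD 3, in that order. With slide as a block or with the Keap1 arrays alone none of the 4 called markers passed the limma test.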

How the data were processed

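Total RNA of mouse liver was labelled with Cy3 and hybridized to single-colour Agilent arrays, 1 array per sample, per the labels' protocols. Per the file headers, the deposited processed-signal intensities were background-subtracted and detrended within each array by Agilent Feature Extraction and not scaled between arrays. The deposited median intensities of spots and background are raw pixel values, and flags for spots above background, saturated or outlying are other output of that software, per the file headers. The authors' series table equalled the processed signal at 810324 of 810324 entries.

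Control spots and outlier spots were left out, the log2 signals of a probe's spots were averaged, and log2 of the array's 75th percentile was subtracted. Symbols came from RefSeq (GRCm38.p6) for 26718 of 41174 probes. Probes above background (at least 50% of their spots) in a complete group of 3 arrays were kept, 23554 in all, and the brightest probe of a gene stood for it. This left 17721 genes. Array headers name the genome build mm9, so no gene coordinates are given from them, and promoter coordinates are those of GRCm38.p6.

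The model, in limma 3.58.1 under R 4.3.3, had 1 mean for each of 6 groups and used 18 arrays (12 residual and 3.07 prior degrees of freedom), so that the spread was estimated over all groups. The contrasts were Keap1 KD minus control, and that effect minus the Nrf2 KO effect. P-values were adjusted over the whole table by Benjamini-Hochberg. On simulated data with 17670 genes, 92% of genes changed by 2 in either direction, 56% of those changed by -1 and 50% of those changed by 1 were recovered, with 6 false calls. The simulated noise was independent between genes and arrays, without slide, scan date or array-wide shifts. The 6 false calls are thus no measure of errors among the real calls. Alternatives were other scalings, filters, probe rules, fits on fewer arrays, weights, blocks for slide, scan date and replicate number, and leaving out each Keap1 array.

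The comparison, 37 gene lists and 10 marker lists were chosen with earlier results of these data known. Genes named are 22 set by name, the 10 largest called changes in each direction without overlap, and up to 5 called members of lists with at least 2 called and of marker lists. Other genes named were picked after their values were seen. Results for some genes are not reported here. Same-numbered KD and control samples had correlations of their deviations from the group means of 0.10, -0.36 and 0.15, so the numbers do not pair the samples.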

Additional observations from a re-analysis of the deposited data

Results flagged for a closer look

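For 38 of the named genes the Keap1 effect differed from the effect in the Nrf2 line, by the limma test of the difference with an adjusted p under 0.05. The value after each gene below is the Keap1 change minus the Nrf2 change on the log2 scale. It was above 0 for 37 genes and below 0 for 1, Keap1 (-2.50), with a change of -2.38 in Keap1 KD and of 0.11 in Nrf2 KO. The greatest was that of Nfe2l2 (8.02), the gene deleted in Nrf2 KO, so the value describes the KO line. Many of the named genes were chosen by their Keap1 change, which is part of the difference, so its direction is in part set by that choice.

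Among genes of quinone and carbonyl handling the differences were those of Cbr3 (6.73), Nqo1 (4.80), Aox1 (4.67), Htatip2 (2.43) and Akr1b8 (1.54). Among glutathione S-transferases they were those of Gsta2 (4.52), Gsta1 (4.34), Gstm4 (3.39), Gstm3 (3.13), Gstp1 (2.51) and Gstm1 (2.14). The genes of glutathione, thioredoxin and peroxide reduction were Gpx2 (5.19), Srxn1 (3.18), Gsr (1.65), Txnrd1 (1.56), Gclc (1.47) and Txn1 (1.17). Those of NADPH, heme and iron were Ftl1 (1.40), Slc48a1 (1.39) and Pgd (1.20). Glucuronidation was represented by Ugt2b35 (3.69), Ugdh (3.05), Ugt2b1 (2.997) and Slc35d1 (1.83). Hydrolases and efflux pumps were represented by Ces2b (5.03), Ces1g (2.86), Ephx1 (2.73), Abcc4 (3.02) and Abcc3 (2.76). Bile acid genes were Cyp7b1 (3.01), Acox2 (2.14) and Hsd3b7 (1.53). The remaining genes, outside these lists, were Dnase1 (4.56), Nudt11 (4.54), D630045J12Rik (3.92) and Trem2 (1.98). For Dnase1, Nudt11 and D630045J12Rik the Keap1 controls were not above background, so the size of the difference rests in part on values below it. The 2 lines share no array but do share slides and scan dates, while Nrf2 KO and Nrf2 control arrays had no slide or scan date in common. With slide as a block the number of genes that differed over the whole table was 27 in place of 551.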

How the results depend on the processing

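None of the 53 calls among genes named by rule changed direction under the alternatives run. Direction was not compared in this way for the other called genes in the text. Outcomes are given as genes higher, genes lower and genes whose Keap1 effect differed from the Nrf2 effect, beside 172, 819 and 551. Counts moved over 1.5 times as follows. Quantile normalization gave 403 lower and 276 differing, and normexp with quantile normalization 375 and 237. Scaling to the array median gave 350 higher and 352 lower. Without the background filter the counts were 94, 530 and 161, and with probes above background on all 18 arrays 316 lower and 319 differing. The 6 Keap1 arrays alone gave 20 higher and 36 lower. The 12 arrays of the Keap1 and Nrf2 lines gave 110 higher, 451 lower and 223 differing. Array quality weights gave 66 higher and 152 lower. Slide as a block gave 11, 46 and 27, and scan date as a block 56, 202 and 78. In these block fits a few genes with missing spots lacked an estimate of a block. Leaving out 1 Keap1 array at a time gave 94 to 205 higher, 262 to 929 lower and 264 to 662 differing. The lowest of each came without control 3 (94, 262 and 264), and without KD 1 lower calls were 380 and differing genes 342. Without KD 3 there were 471 lower. The replicate block gave 168 higher, 741 lower and 471 differing. As the numbers share nothing known, this is only a description, and 1 of 3 KD samples correlated best with the control of its own number. Slide as a random block gave 175 and 833, with a correlation of -0.01.

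Of 53 named calls, 53 held with outlier spots left in or slide as a random block, 52 with an intensity trend or the mean of all probes, 48 with median scaling or the replicate block, 44 without the filter, 42 with quantile normalization, 36 with normexp, 34 with array weights, 28 with scan date as a block, 13 with the Keap1 arrays alone and 7 with slide as a block. Without single arrays 37 to 46 were kept. The cause of these losses was not tested. The Keap1 arrays alone leave 4 residual degrees of freedom. Genes near background, and 3 arrays per group, limit what can be called.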

Other observations

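In some genes, picked after their values were seen, single samples stood apart from the rest. Cdkn1a, the cell cycle inhibitor induced by p53, was at -0.49, 3.11 and -2.05 in the controls and 2.75, -2.86 and -2.15 in the KD samples, so that 1 sample of each group, control 2 and KD 1, was far above the rest. The acute phase genes Saa1 and Saa2 were highest in control 2 as well, at 7.39 and 7.42, beside 4.36 to 5.78 and 4.52 to 5.83 in the 5 other samples. The NADP-dependent malic enzyme Me1 was lowest in control 2, at 1.09 beside 3.18 to 4.12.

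The summed linear levels of some lists, picked after their values were seen, did not overlap between the groups. For 15 growth hormone and IGF axis genes the sum ran from 914.8 to 999.7 in the controls and from 590.7 to 807.9 in the KD samples. Of these 15 genes 0 passed the limma test, and Igf1 itself had a change of -0.12. Autophagy genes gave 581.5 to 743.4 in the controls and 773 to 894.6 in the KD samples. Male-biased liver genes gave 634.6 to 944.3 in the controls and 1248 to 1636 in the KD samples. The median change of these 12 genes was 0.03, with 6 above 0 and 6 below. They include Gstp1, also a glutathione S-transferase. Its log2 level was 7.59 to 8.37 in the controls and 9.56 to 9.96 in the KD samples. Sums also did not overlap for quinone, carbonyl and aldehyde handling, glucuronidation, and conjugate and bile efflux pumps. Among all single genes tested, 17.1% had groups that did not overlap, and no such share was computed for list sums. Glutathione S-transferases gave 1642 to 2922 in the controls and 3823 to 5514 in the KD samples by the same sum, which bright probes dominate.

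Among further genes picked after their values were seen, Slc1a1, a glutamate and cysteine carrier, was above background in 0 controls and 3 KD samples and was at least 2.72-fold higher (limma adjusted p = 0.0192). Slc1a1 had a limma adjusted p of 0.0588, 0.0546, 0.0522 or 0.0705 without control 2, control 3, KD 1 or KD 3, in that order. The zinc transporter Slc39a5 had a change of 1.43. Slc39a5 had a limma adjusted p of 0.0631, 0.0598 or 0.0644 without control 1, KD 1 or KD 3, in that order. Mocos, which activates the molybdenum cofactor that Aox1 uses, had a change of 1.01.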
